A study of Homo sapiens with 6 samples.

Results

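The metallothioneins are small, cysteine-rich proteins that bind zinc, copper and cadmium, and they were examined here in AN3CA, an established human endometrial cancer (EC) cell line that expresses *PAX2*. The family was taken as the rows whose gene symbol is one of *MT1A*, *MT1E*, *MT1F*, *MT1G*, *MT1H*, *MT1M*, *MT1X*, *MT2A*, *MT3* and *MTF1*, the last being the zinc-sensing transcription factor of the pathway. Of these 10 genes, 4 were among the 17471 genes listed, namely *MT2A*, *MT1X*, *MT1G* and *MTF1*. The other 6 were not listed and were not analysed here. Neither were *MT1B*, *MT4* and 5 further metallothionein transcripts and pseudogenes of the same locus, of which 0 of 7 were listed. Among the genes listed, 0 stood at 0 TPM in all libraries. A gene that is not listed may therefore have had 0 reads throughout, which could not be checked here.

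The study asked what loss of *PAX2*, a developmental transcription factor, does to EC cells. AN3CA cells were transduced with a lentiviral empty hairpin vector (shEV, 3 libraries) or with 1 short hairpin RNA against *PAX2* (shPAX2, 3 libraries), and both groups were selected with puromycin, were grown in the same serum-containing medium and carry the genotype label WT. The labels (EV) and the study's methods name an empty vector, whereas its results call the AN3CA control a scrambled hairpin. Which of these the control libraries carry could not be checked here. The measurement was RNA-seq of total RNA in TPM, which divides reads by the length of the gene and scales each library to the same total. Nothing in the labels says that replicates were separate cultures, so p-values measure the spread between these libraries, which may be technical, and a change in RNA per cell cannot be told apart from a change in the share of cells expressing a gene.

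Metallothioneins hold zinc and copper in thiolate clusters, buffer the free pool of these metals and bind cadmium. When free zinc rises, MTF1 binds metal response elements in the metallothionein promoters and raises their transcription, and glucocorticoids and oxidative stress are further known inducers. In normal endometrium, metallothionein transcripts are known to be abundant in the secretory phase of the cycle.

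The human metallothionein genes form a cluster on the long arm of chromosome 16. In GRCh37 it ran from chr16:56598985-56718108, a span of 119.1 kb. It held the 16 metallothionein genes, pseudogenes and noncoding transcripts considered here, 15 of them on the plus strand. *MT2A* lies at chr16:56642496-56643409 (plus strand, 3 exons), *MT1X* at chr16:56716382-56718108 (plus strand, 3 exons) and *MT1G* at chr16:56700642-56701977 (minus strand, 3 exons). *MTF1* lies elsewhere, at chr1:38275246-38325264 (minus strand, 11 exons).

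The promoters of the 2 expressed metallothionein genes and of their regulator show how the sites read by MTF1 are laid out. The sequences below are the 250 bases before each gene's start, 5′ to 3′ on the gene's strand, from the RefSeq promoter table for GRCh38.p14. Each was found once in GRCh37, at chr16:56642246-56642495 (plus strand) for *MT2A*, chr16:56716132-56716381 (plus strand) for *MT1X* and chr1:38325265-38325514 (minus strand) for *MTF1*. Capitals mark matches, on either strand, to the core of the metal response element, searched as TGCACNC and TGCGCNC.
MT2A: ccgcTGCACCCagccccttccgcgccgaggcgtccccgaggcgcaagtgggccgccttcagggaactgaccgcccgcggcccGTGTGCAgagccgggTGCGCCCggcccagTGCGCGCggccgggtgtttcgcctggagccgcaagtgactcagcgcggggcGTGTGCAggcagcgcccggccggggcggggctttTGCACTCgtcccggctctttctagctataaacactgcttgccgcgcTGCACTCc
MT1X: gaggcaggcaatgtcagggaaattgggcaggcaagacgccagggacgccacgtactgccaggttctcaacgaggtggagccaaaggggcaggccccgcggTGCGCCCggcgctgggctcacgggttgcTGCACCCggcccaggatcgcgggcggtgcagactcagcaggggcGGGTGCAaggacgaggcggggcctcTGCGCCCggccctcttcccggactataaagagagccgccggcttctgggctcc
MTF1: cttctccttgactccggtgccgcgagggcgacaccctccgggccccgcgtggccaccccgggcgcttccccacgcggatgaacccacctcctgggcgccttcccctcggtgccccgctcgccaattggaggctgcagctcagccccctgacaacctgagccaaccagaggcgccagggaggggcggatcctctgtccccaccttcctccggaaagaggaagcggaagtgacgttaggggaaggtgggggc

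*MT2A* held 7 matches, which began at positions -246, -168, -153, -139, -88, -54 and -8 from its start, those at -168 and -88 on the minus strand. *MT1X* held 4 matches, at -150, -122, -78 and -53, of which the one at -78 was on the minus strand. *MTF1* held 0. Among 27305 RefSeq promoters of the same length, 24.7% held at least 1 match and 0.366% held at least 4. Among the 9090 promoters of genes tested in these libraries the shares were 33.6% and 0.539%. The TATA box letters TATAAA occurred in the *MT2A* and *MT1X* promoters and in 7.17% of all promoters. *MT1G* had no entry in the promoter table. A match is a description of the letters and does not show that a factor binds there.

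The libraries held 10730909 to 18221859 reads in shEV and 19422615 to 29405787 reads in shPAX2, as recovered from the TPM steps, so depth was higher throughout in the knockdown group. *PAX2* itself, the targeted gene, fell to 26.9% of its shEV mean (log2 fold change -1.47, SE 0.18, adjusted p 0.000294). The labels call the cells epithelial. Of 10 epithelial markers 9 were listed and 8 of those, among them *EPCAM* and *CDH1*, were under 0.5 TPM in all 6 libraries, whereas *KRT18* carried most of the list's summed level of 11.2 to 13.4 TPM in shEV and 12.4 to 18.2 TPM in shPAX2. The endothelial list summed to at most 0.0611 TPM. The leukocyte list, of which 4 of 7 genes were listed, summed to 1.12 to 1.79 TPM in shEV and 1.82 to 2.58 TPM in shPAX2. Most of that was *CD68* (means 1.19 and 2.02 TPM), and the other 3 listed were under 0.5 TPM in all 6 libraries. The stromal list, of which 6 of 8 were listed, summed to 850 to 888 TPM in shEV and 597 to 689 TPM in shPAX2. Nearly all of it was 2 collagen genes that went opposite ways. *COL1A2* fell from 836 to 390 TPM (log2 fold change -1.11, adjusted p 1.75e-05) and *COL3A1* rose from 35.1 to 242 TPM (2.79, adjusted p 0.000122). *COL1A1* and *PDGFRB* had group means of 0.724 to 1.04 TPM, and *PDGFRA* and *THY1* were under 0.5 TPM in all 6 libraries. The part of the marker differences in the metallothionein values was not tested.

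*MT2A*, the most widely expressed metallothionein, was the most abundant member. The shEV libraries gave 227, 223 and 200 TPM for replicates 1, 2 and 3 (510, 826 and 758 reads). The shPAX2 libraries gave 97.3, 141 and 191 TPM in the same order (624, 799 and 782 reads). All 3 shPAX2 libraries lay below all 3 shEV libraries, with shPAX2 replicate 3 just below shEV replicate 3 and shPAX2 replicate 1 far below the rest. For shEV and shPAX2 the means were 217 ± 14.3 and 143 ± 47.0 TPM (SD, n = 3 each), and the second was 66.1% of the first. On the log2(TPM + 0.5) scale the difference was -0.65 (SE 0.26, 95% interval -1.32 to 0.03), with an unadjusted p of 0.0571 and an adjusted p of 0.108 in limma. It therefore did not pass the test at an adjusted p under 0.05. Groups did not overlap, in the lower direction, in 39.0% of all genes tested, and in either direction in 54.9%.

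The verdict on *MT2A* turned on 1 library. Without shPAX2 replicate 3 the log2 difference was -0.88 (SE 0.17) with an adjusted p of 0.0134, and *MT2A* passed. With shPAX2 replicate 1 left out instead, the difference shrank to -0.39 (adjusted p 0.0689). The estimate was negative under every alternative setting tried, from -0.88 to -0.39, with adjusted p from 0.0134 to 0.226. For this gene alone an exact two-sided permutation test gave p = 0.1, and groups of 3 cannot go lower.

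**Figure D1:**
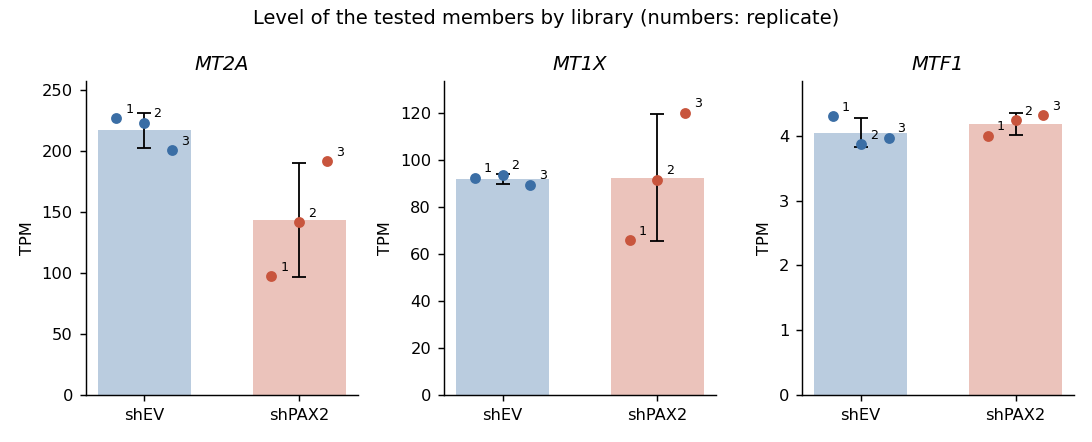
Level of the 3 tested members in TPM (vertical axes, from 0) in the shEV and shPAX2 libraries. Bars are means, error bars the SD of 3 libraries and points single libraries numbered by replicate. *MT2A* ranged from 200 to 227 TPM in shEV and from 97.3 to 191 TPM in shPAX2, *MT1X* from 89.6 to 93.8 and from 66.0 to 120 TPM, and *MTF1* from 3.87 to 4.32 TPM over all 6 libraries.

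*MT1X*, one of the MT1 isoforms, had nearly equal group means. Its shEV libraries gave 92.7, 93.8 and 89.6 TPM (201, 335 and 327 reads) by replicate. Its shPAX2 libraries gave 66.0, 91.8 and 120 TPM (408, 500 and 474 reads). In shPAX2, replicate 1 lay below the narrow shEV range, replicate 2 within it and replicate 3 above it. The means were 92.0 ± 2.17 and 92.7 ± 27.1 TPM (SD, n = 3 each). The log2 difference was -0.03 (SE 0.22, 95% interval -0.59 to 0.53, adjusted p 0.919), and its sign turned under median-of-ratios scaling and without shPAX2 replicate 1. This interval overlaps that of *MT2A* (-1.32 to 0.03), and the difference between the estimates of both genes was not tested.

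*MT1G* was at the limit of detection. It had 0 reads in 5 libraries and 1 read in shPAX2 replicate 1, equal to 0.165 TPM. In the libraries with 0 reads, a count of 0 allows up to 3 reads, which correspond to 0.839 to 1.41 TPM in the shEV libraries and to 0.562 and 0.776 TPM in shPAX2 replicates 2 and 3, for counting error only. A difference was not detectable at this depth, and the gene was not tested.

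*MTF1*, the transcription factor, was expressed at a low and even level. It measured 4.30, 3.87 and 3.97 TPM in the shEV replicates and 4.0, 4.24 and 4.32 TPM in the shPAX2 replicates, on 184 to 488 reads a library. The groups overlapped. The log2 difference was 0.04 (SE 0.10, 95% interval -0.18 to 0.27, adjusted p 0.752), and it was positive under every alternative, up to 0.29 with an adjusted p of 0.0515 under quantile normalization.

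Of the 3 tested members, 0 passed at an adjusted p under 0.05, and 0 had an unadjusted p under 0.05. In voom on the recovered reads 0 passed after adjustment and 1, *MT2A*, had an unadjusted p under 0.05 (0.0333, adjusted p 0.0686). Among all 13163 genes tested, 42.8% passed after adjustment, 12.2% higher and 30.5% lower in shPAX2, and 51.4% had an unadjusted p under 0.05. When a log2 change of 1 or more in size was required as well, 4.54% passed, 1.43% higher and 3.11% lower. The direction of calls over all genes depended on scaling, since 28.6% of calls were higher as reported, 52.7% with median-of-ratios factors and 48.7% after quantile normalization. Median-of-ratios scaling moved the median log2 fold change of all genes tested from -0.10 to 0.0053. On that second scale *MT2A* stood at -0.53 (adjusted p 0.163) and *MT1X* at 0.080 (adjusted p 0.797).

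By mean TPM over the 6 libraries, *MT2A* ranked 813 of 17471 listed genes, within the top 4.65%. *MT1X* ranked 1726, within the top 9.88%. *MTF1* ranked 10815 and *MT1G* 15710. The order *MT2A*, *MT1X*, *MTF1*, *MT1G* was the same in every library, although in shPAX2 the highest *MT1X* value (120 TPM) lay above the lowest *MT2A* value (97.3 TPM).

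The summed level of the listed metallothioneins overlapped between the groups. Summed over *MT2A*, *MT1X* and *MT1G* it came to 319, 317 and 290 TPM in the shEV libraries. The shPAX2 libraries had sums of 163, 233 and 311 TPM, so that shPAX2 replicate 3 reached the shEV range. The means were 309 ± 16.3 and 236 ± 74.1 TPM (SD, n = 3 each), a difference of -72.7 TPM. Without shPAX2 replicate 3 the difference was -110 TPM, and without shPAX2 replicate 1 it was -36.3 TPM.

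The level of *MT2A* relative to that of *MT1X* did not overlap between the groups and varied little within them. This ratio was chosen after the values were seen, and it is given with no test. Among single genes tested, the groups did not overlap in 54.9%, and the share for ratios of other genes was not computed. The TPM of *MT2A* was 2.45, 2.38 and 2.24 times that of *MT1X* in shEV replicates 1 to 3. In shPAX2 replicates 1 to 3 it was 1.47, 1.54 and 1.59 times that of *MT1X*. The ratio was thus 2.35 ± 0.108 in shEV and 1.54 ± 0.0582 in shPAX2 (SD, n = 3 each). On the log2 scale shPAX2 minus shEV was -0.62 for the group means, and 0.49 separated the nearest libraries of the 2 groups, while libraries of 1 group spanned at most 0.13. Leaving out each library in turn gave -0.65 to -0.59.

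The same comparison in whole reads carries its own counting error. *MT2A* made up 71.7% of the 711 reads of both genes in shEV replicate 1 (95% Wilson interval 68.3% to 74.9%), 71.1% of 1161 reads in replicate 2 (68.5% to 73.7%) and 69.9% of 1085 reads in replicate 3 (67.1% to 72.5%). In shPAX2 it made up 60.5% of 1032 reads in replicate 1 (57.4% to 63.4%), 61.5% of 1299 reads in replicate 2 (58.8% to 64.1%) and 62.3% of 1256 reads in replicate 3 (59.5% to 64.9%). The 3 shPAX2 intervals lay below the 3 shEV intervals, which describes the reads of these libraries and is no test between the groups. The intervals cover at most counting error. The reads carry no molecular identifiers, so duplicate reads count as separate ones and the intervals may be too narrow. Within the spliced transcripts, 0 of the 327 windows of 75 bases in *MT2A* occurred in any other annotated transcript, whereas 119 of 330 windows in *MT1X* (36.1%) also occurred in *MT1G*, in the pseudogene *MT1XP1* or in an overlapping transcript. Reads of *MT1X* could therefore be assigned to or taken from such copies, and the part of this in the ratio was not tested.

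**Figure D2:**
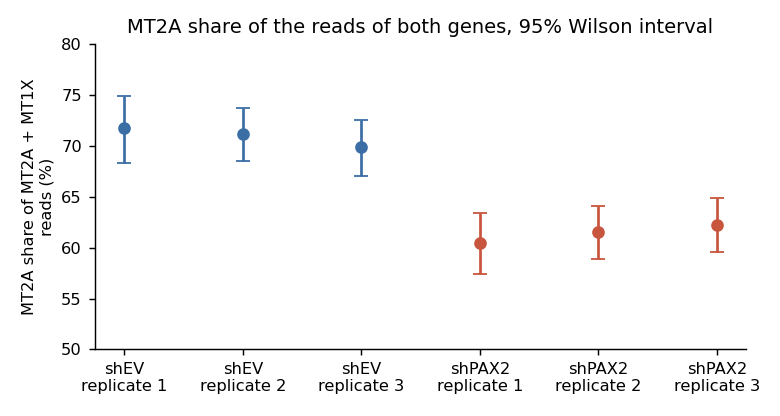
Share of *MT2A* among the reads of *MT2A* and *MT1X* together, in percent (vertical axis, from 50 to 80), for each library. Points are shares and bars 95% Wilson intervals, which cover at most counting error. The shEV libraries sit between 69.9% and 71.7% and the shPAX2 libraries between 60.5% and 62.3%.

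Both metallothioneins were unusually uneven within shPAX2. The highest shPAX2 library was 1.97 times the lowest for *MT2A* and 1.82 times for *MT1X*, against 1.13 and 1.05 times in shEV and 1.08 times for *MTF1* in shPAX2. The SD of log2(TPM + 0.5) over the shPAX2 libraries was 0.49 for *MT2A* and 0.43 for *MT1X*, and the median over 8995 tested genes with a mean of at least 10 TPM was 0.08. Of those genes, 0.80% had an SD in shPAX2 as large as that of *MT2A* and 0.978% as large as that of *MT1X*. In shEV the corresponding shares were 34.4% and 86.4%. Both genes were lowest in shPAX2 replicate 1 and highest in shPAX2 replicate 3. Replicate 1 was the deepest of these libraries (29405787 reads) and replicate 3 the shallowest (19422615 reads), and small noncoding RNAs took 19.6% of the TPM of replicate 1, 17.4% of replicate 2 and 17.0% of replicate 3. The part of depth and of small noncoding RNAs in this spread was not tested. With small noncoding RNAs left out of the totals, *MT2A* had a log2 difference of -0.63 and an adjusted p of 0.0501.

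**Figure D3:**
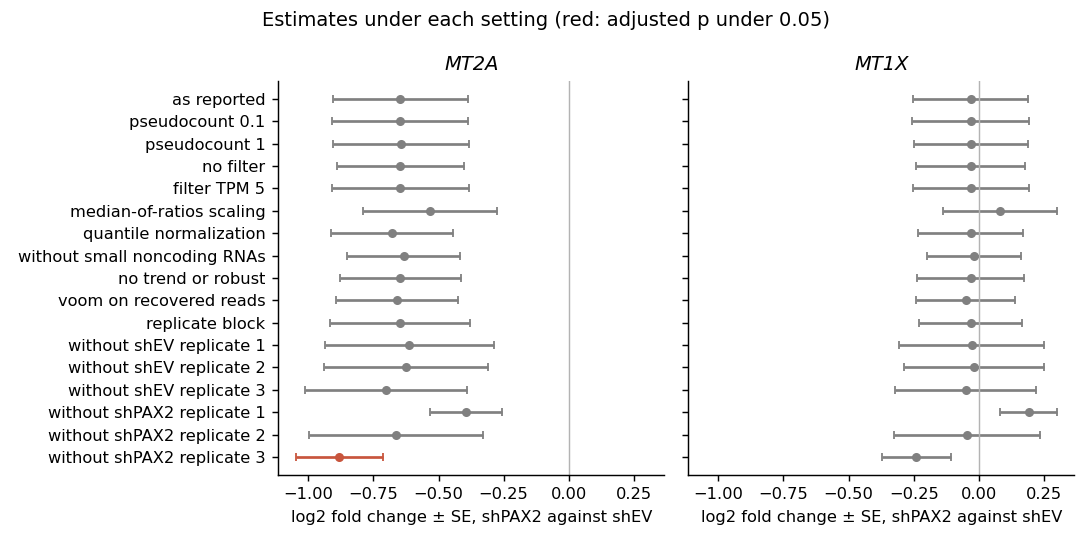
Log2 fold change of *MT2A* and *MT1X*, shPAX2 against shEV, with SE (horizontal axes) under the reported and each alternative setting (rows). Red marks an adjusted p under 0.05. *MT2A* lies between -0.88 and -0.39 and passes only without shPAX2 replicate 3, and *MT1X* lies between -0.24 and 0.19, on both sides of 0.

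The genes whose pattern over the 6 libraries lay nearest to that of *MT2A* were found by the mean absolute difference of log2(TPM + 0.5), each gene centred on its own mean. The nearest were *JMJD7*, a lysyl hydroxylase and protease gene (0.101), *DCTPP1*, a pyrophosphatase that clears modified deoxycytidine triphosphate (0.102), the microRNA gene *MIR635* (0.111), *LOC153910* (0.115) and the pseudogene *AKR1C6P* (0.120). *DCTPP1* was the only one of them at a level near that of the metallothioneins, with 97.1, 104 and 90.9 TPM in shEV replicates 1 to 3. Its shPAX2 values were 50.6, 65.8 and 73.6 TPM in the same order of replicates. Its log2 fold change was -0.63 (SE 0.13, adjusted p 0.00833), and its likeness to *MT2A* is what it was chosen for. *JMJD7* overlaps *JMJD7-PLA2G4B* and *MIR635* overlaps *WIPI1*, in each case on the same strand, so that their reads could come from either gene. *MT1X* lay at 0.307 from *MT2A* and *MTF1* at 0.372, where the median of all tested genes was 0.355, and 28.5% of tested genes were as near to *MT2A* as *MT1X* was.

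The genes around the cluster were read next. On either side of it, 22 genes formed a neighbour list, of which 20 were listed and 16 tested. Of the 16, 4 were higher and 5 lower at an adjusted p under 0.05 (56.2%, beside 42.8% of all genes tested), with a median log2 fold change of 0.01 beside -0.10 for all genes tested. The lowest was *DOK4*, an adaptor of receptor tyrosine kinases, which fell from 41.8 ± 2.78 to 23.5 ± 0.884 TPM (SD, n = 3 each; log2 fold change -0.82, adjusted p 3.23e-05). The highest estimate was that of *SLC12A3*, the thiazide-sensitive sodium chloride cotransporter, at 0.55 (SE 0.44, adjusted p 0.362), and it reached 0.95 with an adjusted p of 0.0452 without shPAX2 replicate 1. The genes at the edges of the cluster among those tested were *BBS2*, a ciliary transport subunit, at -0.15 (adjusted p 0.284) and *NUP93*, a nuclear pore subunit, at 0.23 (adjusted p 0.0399, at most 0.130 over the alternatives). *BBS2* reaches into the cluster, to chr16:56616579, and overlaps *MT4* on the opposite strand.

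**Figure D4:**
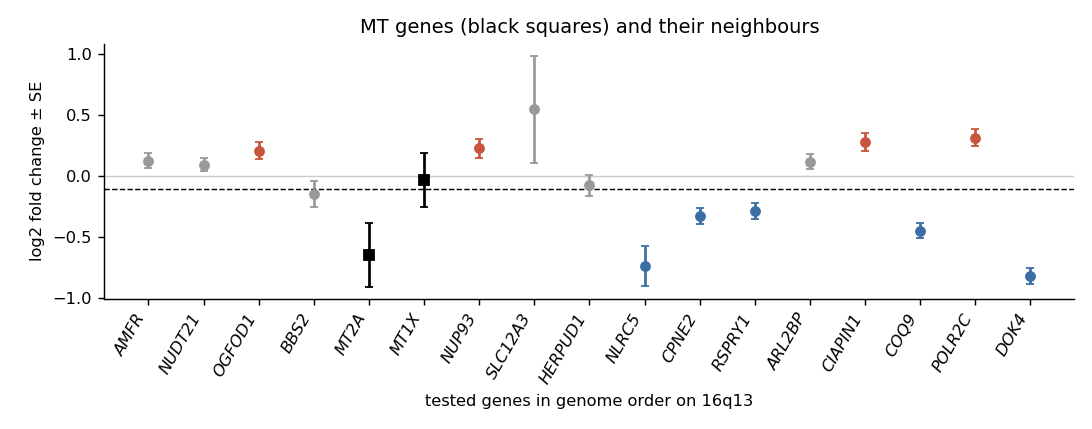
Log2 fold change with SE (vertical axis) of *MT2A* and *MT1X* (black squares) and 15 of the 16 tested neighbours, in genome order and not to distance (*FAM192A*, whose symbol was not matched to the annotation, is not drawn). Red and blue mark genes higher and lower in shPAX2 at an adjusted p under 0.05, and the dashed line is the median of all genes tested. *MT2A* (-0.65) lies between *BBS2* (-0.15) and *MT1X* (-0.03), whose sign turned under median-of-ratios scaling.

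Zinc transport genes set the pool that MTF1 senses. SLC30 proteins move zinc out of the cytosol and SLC39 proteins move it in. Of 10 exporters 7 were tested, with 1 higher, 1 lower and 5 that did not pass (28.6% called, beside 42.8% of all genes tested). The exporter *SLC30A1*, which sits in the plasma membrane and is a known MTF1 target, measured 18.8, 21.0 and 18.7 TPM in the shEV libraries and 17.4, 20.6 and 20.3 TPM in the shPAX2 libraries, which overlap. Its log2 difference was -0.01 (adjusted p 0.949), with a sign that turned under both other scalings. *SLC30A4*, an exporter of endosomal membranes, fell from 12.1 ± 1.10 to 7.49 ± 0.548 TPM (SD, n = 3 each; adjusted p 0.000657). *SLC30A5*, which loads zinc into the secretory pathway, rose by 0.20 on the log2 scale (adjusted p 0.0191), a call lost without shEV replicate 2 (adjusted p 0.0710), shPAX2 replicate 2 (0.0767) or shPAX2 replicate 3 (0.0571).

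The importers moved in both directions. Of 14, 13 were listed and 10 tested, and of these 4 were higher, 4 lower and 2 did not pass, so that 8 of 10 were called where 42.8% of all genes tested were. Their median log2 fold change was -0.11. The 4 higher were *SLC39A7*, which releases zinc from the endoplasmic reticulum, at 0.62 (adjusted p 0.000185), *SLC39A3* at 0.57, *SLC39A14* at 0.42 and *SLC39A1* at 0.34. The 4 lower were *SLC39A4*, the intestinal zinc importer, at -0.83 (adjusted p 0.00890), *SLC39A10* at -0.80 (adjusted p 0.000281), *SLC39A11* at -0.68 and *SLC39A6* at -0.60. *SLC39A10* stood at 13.96, 13.7 and 16.9 TPM in shEV and 8.66, 8.49 and 7.73 TPM in shPAX2, whereas *SLC39A4* was under 1 TPM in all libraries. *SLC39A10* is known to be repressed by MTF1. Its RefSeq promoter held 0 matches to the searched core and that of *SLC30A1* held 1, at -49 on the minus strand. The window searched for *SLC39A10*, chr2:196521432-196521681, lies inside the gene as annotated in GENCODE, which starts at chr2:196440701. Other starts and the bases after the start were not searched.

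The list of known MTF1 targets outside the family held 8 genes, all tested, with 1 higher, 2 lower and 5 that did not pass. That is 37.5% called, beside 42.8% of all genes tested, and the list's median log2 fold change was -0.07. *PGF*, a placental growth factor gene, rose from 1.47 ± 0.228 to 2.59 ± 0.707 TPM (SD, n = 3 each; log2 fold change 0.63, adjusted p 0.0229), a call lost without shEV replicate 2 (adjusted p 0.0549), shEV replicate 3 (0.0827) or shPAX2 replicate 2 (0.0959). *SLC39A10* and the LIM protein gene *CSRP1* (-0.29, adjusted p 0.00900, at most 0.057 over the alternatives) were lower.

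Copper is the other metal that metallothioneins buffer. All 15 genes of the copper list were tested, with 1 higher, 4 lower and 10 that did not pass. That is 33.3% called, beside 42.8% of all genes tested, and the list's median log2 fold change was 0.00. *COMMD1*, which takes part in copper export, rose from 51.5 ± 2.86 to 64.9 ± 5.06 TPM (SD, n = 3 each; log2 fold change 0.33, adjusted p 0.00675). The metalloreductase *STEAP2* fell by 0.64 on the log2 scale (adjusted p 0.00180). The other 3 lower genes were *SLC31A1*, the high-affinity copper importer (-0.30, adjusted p 0.00272), *ATP7A*, a copper-exporting ATPase (-0.39, adjusted p 0.00502, at most 0.0728 over the alternatives), and *CCS*, the copper chaperone of superoxide dismutase (-0.18, adjusted p 0.0455, at most 0.423).

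The other known inducers of metallothioneins were read from 3 lists. The NRF2 and oxidative stress list held 18 genes, the regulators *NFE2L2* and *KEAP1* included. Of these, 17 were tested, with 2 higher, 5 lower and 10 that did not pass, and a median of -0.11. The called share was 41.2%, beside 42.8% of all genes tested. *FTL*, the ferritin light chain, stood at 1799, 1566 and 1605 TPM in shEV and at 827, 817 and 783 TPM in shPAX2 (log2 fold change -1.03, SE 0.07, adjusted p 9.64e-06). *HMOX1*, the haem oxygenase that oxidative stress and heavy metals induce, was at -0.14 and did not pass (adjusted p 0.195).

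The glucocorticoid response list held 12 genes, of which 10 were tested, with 0 higher, 7 lower and 3 that did not pass, where 30.5% of all genes tested were lower. The list's median was -0.55 beside -0.10 for all genes. *SGK1*, a kinase induced by glucocorticoids, stood at 3.43, 2.65 and 2.54 TPM in shEV and 0.626, 0.580 and 0.801 TPM in shPAX2 (log2 fold change -1.52, SE 0.16, adjusted p 0.000126). *ERRFI1*, a feedback inhibitor of EGF receptors, was at -1.19 (adjusted p 9.13e-05) and *CRISPLD2*, a secreted lipopolysaccharide-binding protein gene, at -1.14 (adjusted p 0.000231). The 3 that did not pass were *FKBP5* at 0.10 (adjusted p 0.201), *TSC22D3* at -0.20 (adjusted p 0.166) and *NFKBIA* at -0.04 (adjusted p 0.676). *NR3C1*, the glucocorticoid receptor, had 0 to 2 reads in every library, was below the filter and was not tested.

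The heat shock list of 9 genes had 2 higher, 1 lower and 6 that did not pass, with a median of 0.11. The called share was 33.3%, beside 42.8% of all genes tested. *HSPA1B*, a stress-inducible HSP70, rose from 11.2 ± 0.327 to 19.4 ± 2.05 TPM (SD, n = 3 each; log2 fold change 0.76, adjusted p 0.000176). *HSPA1A*, of the same list, had means of 0.502 TPM in shEV and 0.758 TPM in shPAX2 and did not pass (0.32, adjusted p 0.152). Whether reads are shared between *HSPA1A* and *HSPA1B* was not searched. *HSPB1*, a small heat shock protein, fell by 0.29 on the log2 scale (adjusted p 0.0158), a call lost under median-of-ratios scaling (adjusted p 0.102) and without shEV replicate 2 (adjusted p 0.0565). Over the 7 metal, redox, hormone and heat lists together, 73 different genes were tested and 34 passed, 11 higher and 23 lower. That is 46.6%, near the 42.8% of all genes tested.

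**Figure D5:**
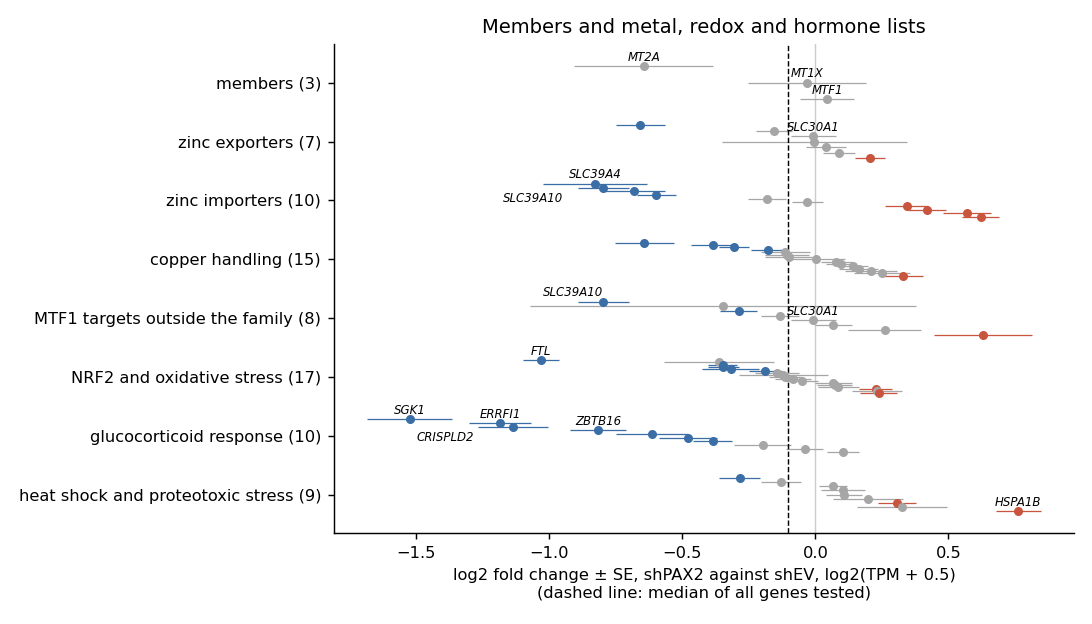
Log2 fold change with SE (horizontal axis) of the tested members and of the genes of the 7 lists, 1 row of points per list with the number tested. Red and blue mark genes higher and lower in shPAX2 at an adjusted p under 0.05, grey those that did not pass, and the dashed line is the median of all genes tested (-0.10). The 3 members are grey, and *SGK1* (-1.52), *ERRFI1* (-1.19), *CRISPLD2* (-1.14) and *FTL* (-1.03) lie farthest to the left.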

How the data were processed

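The authors deposited TPM values per gene symbol for 6 libraries. The submitters' processing notes name bcl2fastq, STAR, Subread (featureCounts), edgeR and build hg19, with no versions, and the published methods (single-end reads from stranded libraries depleted of rRNA) refer to another cell line, so the exact counting tool is not given in the sources used here. Whole reads were recovered from the TPM steps in 100.0% of genes (largest relative deviation 7.15e-14). They are the smallest whole numbers in the ratios between libraries, so a factor common to all libraries would be missed. A gene seen in only 1 library is given 1 read by this method. For *MT1G*, 1 read implied a gene length of 607 bases, where the annotated exons span 751. The recovered reads implied 643 bases for *MT2A* (914 annotated), 620 for *MT1X* (1727) and 12227 for *MTF1* (7989), so this check is rough. Genes reaching 0.5 TPM in 3 or more libraries were fitted on log2(TPM + 0.5) with limma 3.58.1 in R 4.3.3 (eBayes, robust, with trend). The fit compared 3 shPAX2 with 3 shEV libraries, two-sided, with Benjamini-Hochberg adjustment over all 13163 genes. It had been tested on simulated data with less spread than *MT2A* and *MT1X* had in shPAX2, so that trial does not cover these genes. The log2(TPM + 0.5) scale understates the change of low genes. Named genes are the members, *PAX2*, *SLC30A1*, per list up to 4 genes past both thresholds or else the highest and lowest estimate, and the 5 genes nearest to *MT2A*; others were named after their values were seen. The members and lists were chosen with earlier results of these data known. Positions and transcripts are from GENCODE on GRCh37.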

Additional observations from a re-analysis of the deposited data

How the results depend on the processing

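Settings tried were other pseudocounts, filters, scalings and moderation, voom on recovered reads, a replicate block, a stricter adjusted p and leaving out each library, all run; a filter at 5 TPM removed *MTF1* and *PAX2* from the test. *PAX2* passed under all that tested it (without each library, -1.61 to -1.36). *MT2A* kept its sign, at -0.88 to -0.39 when 1 library was left out, and the count of members called was 0 to 1 there, the 1 coming without shPAX2 replicate 3. *MT1X* turned to 0.080 under median-of-ratios scaling and ranged from -0.24 to 0.19 without 1 library, positive only without shPAX2 replicate 1. *SLC30A1* turned to 0.10 under median-of-ratios scaling, 0.12 under quantile normalization and 0.0044 without small noncoding RNAs, and ranged from -0.050 to 0.067 without 1 library. Calls in the 7 lists numbered 27 to 38 and among the neighbours 6 to 11 without 1 library, 41 and 12 under median-of-ratios scaling and 32 and 8 with the replicate block, against 34 and 9 as reported. For the other 22 named genes, 321 of 364 results kept their direction and side of the threshold, 37 lost and 1 gained a call, and 5, all of *SLC30A1*, reversed. Why these values shift was not tested. Same-numbered libraries of the groups deviated with correlations of -0.05, 0.08 and 0.0014, so the numbers do not pair them. With the replicate block, 5112 genes passed against 5629, *MT2A* had an adjusted p of 0.160 and, of the genes named by rule, *AKR1C6P* lost its call (0.0880). Depth limits *MT1G* and *NR3C1*, which had at most 1 and 2 reads in a library.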
